A study of Mus musculus with 8 samples.

Results

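The 10 genes described here make the sugar chains of mucins: the glycosyltransferases B3gnt6, Galnt3, Galnt4, Galnt7, Galnt12, C1galt1, Gcnt3, Gcnt1 and Fut2, and C1galt1c1, the chaperone of C1galt1. They were taken by gene name from a count table of 23282 lines and 23236 different names, and each matched 1 line. They were selected on their levels in all 8 libraries, in CPM (a gene's counts scaled to a library of 1e6 counts), so their levels and differences are given as a description and no p-value is attached to a single member.

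Mucins such as Muc2, the main gel-forming mucin of the colon, are built on a protein core whose serines and threonines carry dense sugar chains. A polypeptide GalNAc-transferase (the Galnt family) attaches the first sugar, N-acetylgalactosamine. C1galt1 then makes the core 1 structure, for which it needs the chaperone C1galt1c1 (Cosmc), or B3gnt6 makes the core 3 structure instead, Gcnt1 adds core 2 branches, and Gcnt3 adds core 2 and core 4 branches. Fucose, sialic acid and sulfate finish the chains, and Fut2 is the intestinal enzyme that adds the terminal fucose of the secretor type. In mice, loss of core 1 or core 3 chains is known to weaken the mucus barrier and to make the colon more sensitive to dextran sodium sulfate (DSS), a polymer given in drinking water to injure the colon lining.

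The libraries came from intestinal tissue of wild-type C57BL/6 mice, with 2 libraries in each of 4 groups, and the labels name no gut region. NC mice received phosphate-buffered saline as control. PC mice received that and then 3% DSS for 6 days. Ex mice were gavaged every day for 3 weeks with exosomes (vesicles that cells release) from bovine colostrum, the first milk, at 1 mg a day, and ExDSS mice received the exosomes first and then the DSS. All 4 groups share strain and genotype, the animals' age is not analysed here, and no label ties the 2 libraries of a group to different animals, so part of their spread, which is all that a p-value here measures, may be technical.

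Total counts were 8813622 to 12308537 in 7 libraries and 1163147 in the library labelled Ex 2, where the ribosomal RNA precursor Rn45s took 53.5% of the counts against 0.407% to 13.1% elsewhere. The summed level of 14 epithelial markers was 38.7 CPM in Ex 2, with 4 of them (Elf3, Cdx2, Lgals4 and Esrp1) at 0, and 3919 to 6462 CPM in the others. Lgals4 was also at 0 in NC 2, ExDSS 1 and ExDSS 2, and Elf3 also in ExDSS 1. The 12 goblet cell markers summed to 138 CPM in Ex 2 and to 15509 to 61567 CPM elsewhere. Pancreatic acinar genes (19 in the list) summed to 94479 CPM in NC 2 and 211677 CPM in ExDSS 1, and to 74.8 to 617 CPM in the other 6 libraries. Neutrophil genes (12 in the list) summed to 4264 and 2354 CPM in the libraries labelled NC and 2946 and 2776 CPM in those labelled ExDSS, against 21.2 and 16.8 CPM in those labelled PC and 16.5 and 11.2 CPM in those labelled Ex. The libraries labelled as untreated controls thus held the neutrophil genes that those labelled as DSS alone lacked, and whether these labels were exchanged was not tested. All comparisons and directions below that use NC or PC libraries (PC against NC, ExDSS against PC, Ex against NC and the interaction) are of libraries so labelled. The colonocyte genes Car1 and Guca2a reached 355 to 5115 CPM and 201 to 2334 CPM outside Ex 2. Of 9 listed genes that mark the small intestine, Sis and Lct were at or below 0.681 CPM in every library. Others of that list were present. Fabp2 ranged from 1.72 CPM (Ex 2) to 1035 CPM (PC 1), and Anpep from 4.87 CPM (NC 2) to 92.3 CPM (ExDSS 1). The sum of the list was lowest in Ex 2, at 11.2 CPM, and highest in PC 1, at 1056 CPM. In bulk tissue, fewer cells of a type and less RNA per cell cannot be told apart.

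**Figure D1:**
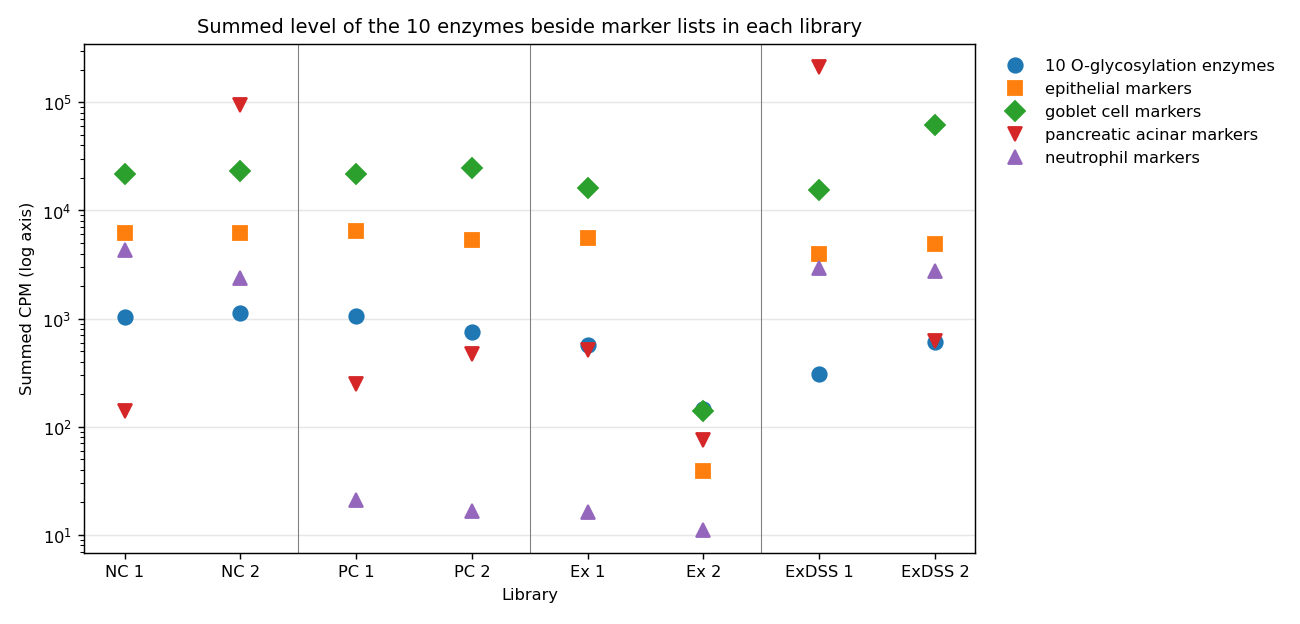
Summed CPM of the members and of the epithelial, goblet, acinar and neutrophil marker lists in each of the 8 libraries, on a log axis. Ex 2 is low in members, epithelial and goblet genes, NC 2 and ExDSS 1 are high in acinar genes, and the neutrophil sum is 2354 CPM or more in the NC and ExDSS libraries and 21.2 CPM or less in the others.

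Summed over the 10 members, the level was 1025 and 1116 in NC, 1051 and 754 in PC, 570 and 144 in Ex, and 308 and 608 CPM in ExDSS. The 4 libraries from exosome-treated mice lay below the other 4, also on the 2 other scales used below (TMM-normalised CPM, and CPM of totals without Rn45s and the acinar genes). Per 100 counts of the epithelial markers, member counts were 16.6 and 18.2 in NC, 16.3 and 14.1 in PC, 10.2 in Ex 1, and 7.86 and 12.3 in ExDSS, so the 3 exosome libraries other than Ex 2 stayed below the 4 others on that base too. In Ex 2 the same ratio was 373, over 168 member counts in all. Per 100 counts of the goblet markers the values were 4.68 and 4.77 in NC, 4.84 and 3.06 in PC, 3.53 in Ex 1, and 1.99 and 0.987 in ExDSS, where PC 2 and Ex 1 change places. The part that epithelial or goblet content has in the differences of single members was not tested.

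**Figure D2:**
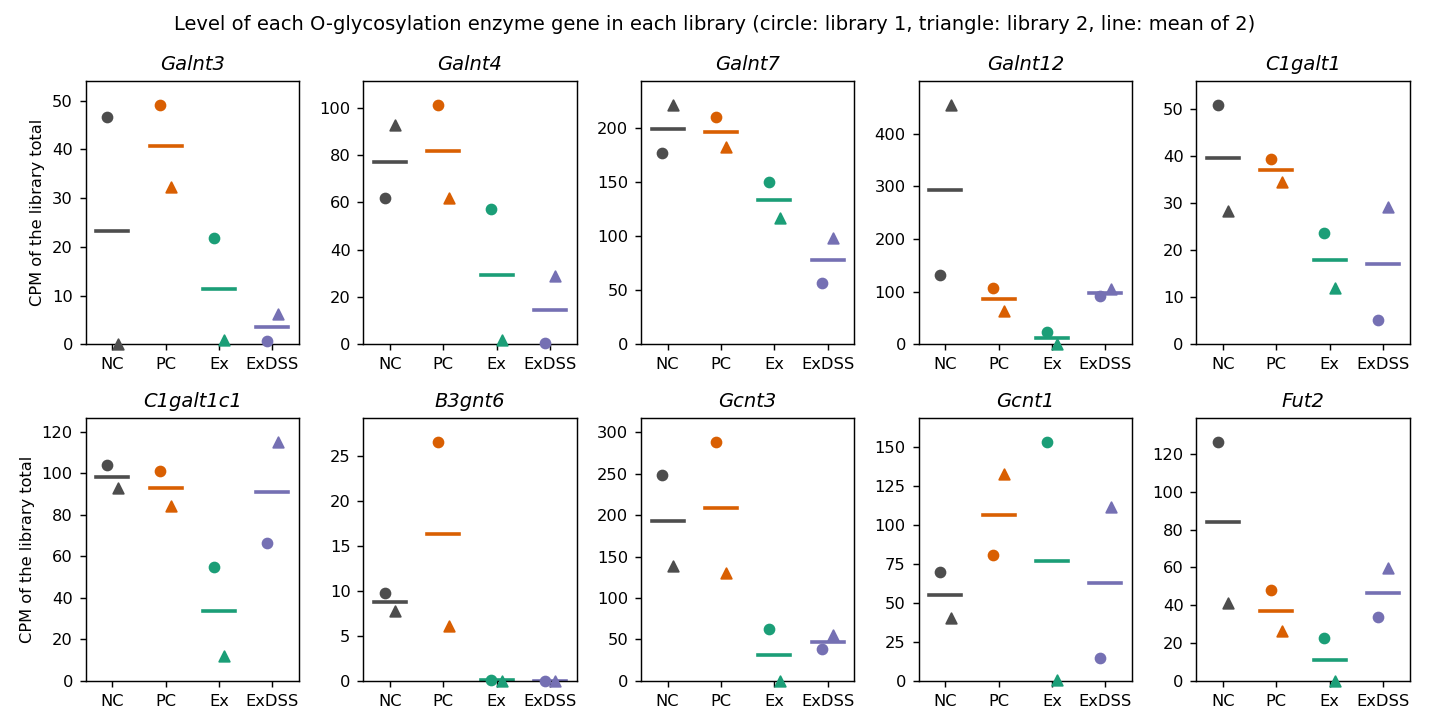
CPM of each of the 10 members in each library, grouped as NC, PC, Ex and ExDSS, with points for libraries and bars for group means. B3gnt6 is present in both NC and both PC libraries and at 1 count or none in the 4 exosome libraries.

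B3gnt6, the core 3 synthase, was at 63 counts or more in the NC and PC libraries and at 1 count or none in the exosome libraries. It is at 7:98192415-98199475 on the minus strand (mouse build GRCm38, as for all coordinates here). Its level was 9.82 and 7.72 CPM in NC (112 and 95 counts), 26.6 and 6.05 CPM in PC (270 and 63 counts), 0.113 CPM in Ex 1 (1 count), and 0 in Ex 2, ExDSS 1 and ExDSS 2. The NC mean was 8.77 ± 1.49 CPM and that of PC 16.3 ± 14.5 CPM (SD, n = 2). The NC and PC libraries overlapped one another, and none of them overlapped the 4 exosome libraries. With 3 counts per library as the limit, a zero leaves room for 2.58 CPM in the shallow Ex 2 library. It leaves room for only 0.311 and 0.277 CPM in the ExDSS libraries. By counting error alone, B3gnt6 was then at least 29.8-fold lower in ExDSS than in NC and at least 55.5-fold lower than in PC. The PC limit rests on PC 1, since against PC 2 alone it is at least 20.6-fold. Against Ex 1 alone the ratio was 76.9 for NC (95% exact interval 13.7 to 3053) and 143 for PC (25.4 to 5652). These limits and intervals cover counting error only, not the spread between mice or differences between libraries in how many genes were detected. Genes with a count numbered 9825 in ExDSS 1, 11874 in ExDSS 2, 12683 in NC 2 and 8760 in Ex 2. They numbered 16123 to 16790 in NC 1, PC 1, PC 2 and Ex 1. The part of this in the B3gnt6 zeros was not tested. The acinar-rich libraries NC 2 and ExDSS 1 had 95 and 0 counts of it, and the part of acinar RNA in the difference was not tested.

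For initiation, Galnt7 at 8:57523825-57653055, minus strand, a transferase that prefers peptides already carrying GalNAc, was 177 and 221 in NC, 210 and 182 in PC, 150 and 117 in Ex, and 56.8 and 98.0 CPM in ExDSS. On this scale all NC and PC libraries were above both Ex libraries, and both Ex libraries above both ExDSS libraries. The place of Ex 2 depends on the scale: with Rn45s and the acinar genes out of the totals it was the highest of the 8 libraries at 251 CPM, against 186 and 245 in NC, and with TMM it was 203 CPM, with Ex 1 at 135 and NC 1 at 134. Both ExDSS libraries were below the other 6 on all 3 scales. In Ex 2 Galnt7 made up 81.0% of the member counts (95% exact interval 74.2% to 86.6%) against 16.1% to 26.2% in the other 7 libraries. The line AW046200 overlaps Galnt7 on the opposite strand, and the sources used here do not say if reads were assigned by strand.

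Galnt12, at 4:47091953-47123042 on the plus strand, is a transferase of the colon epithelium. It was 131 and 454 in NC, 107 and 64.0 in PC, 23.3 and 0 in Ex, and 91.9 and 104 CPM in ExDSS. The Ex libraries were the lowest and NC 2, an acinar-rich library, was far the highest, with Galnt12 at 40.7% of its member counts against 12.8% in NC 1. The group means were 293 ± 228, 85.3 ± 30.2, 11.6 ± 16.4 and 98.1 ± 8.73 CPM for NC, PC, Ex and ExDSS (SD, n = 2). Whether acinar RNA contributed to the NC 2 value was not tested.

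Galnt4, at 10:99108135-99113247 on the plus strand, was 61.8 and 92.7 in NC, 101 and 61.8 in PC, 57.1 and 1.72 in Ex, and 0.414 and 28.8 CPM in ExDSS. It lies inside Poc1b on the same strand, so reads of the 2 genes may be shared. Galnt3, at 2:66082766-66124793 on the minus strand, was 46.7 and 0 in NC, 49.1 and 32.3 in PC, 21.8 and 0.860 in Ex, and 0.622 and 6.29 CPM in ExDSS. These genes had their lowest values in different libraries: Galnt3 in NC 2 and Galnt4 in ExDSS 1. In NC 2, a library of 12308537 counts, no count of Galnt3 leaves room for 0.244 CPM by counting error alone. Its 2 NC libraries thus do not give 1 level.

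C1galt1 and its chaperone C1galt1c1 differed in pattern. C1galt1, at 6:7845224-7872042 on the plus strand, was 50.9 and 28.4 in NC, 39.5 and 34.6 in PC, 23.7 and 12.0 in Ex, and 5.08 and 29.1 CPM in ExDSS. C1galt1c1, at X:38630783-38635143 on the minus strand, was 104 and 92.6 in NC, 101 and 84.4 in PC, 54.9 and 12.0 in Ex, and 66.4 and 115 CPM in ExDSS. The transferase was lowest in ExDSS 1, and the chaperone was lowest in Ex 2. The counts of C1galt1c1 per count of C1galt1 were 2.04 to 3.27 in NC and PC, 2.32 and 1.00 in Ex, and 13.1 and 3.95 in ExDSS, so both ExDSS libraries were above the rest.

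Of the 2 branching enzymes, Gcnt3, which makes core 2 and core 4 branches in mucin-secreting cells, is at 9:70031496-70038088 on the minus strand and was 248 and 138 in NC, 289 and 130 in PC, 63.1 and 0 in Ex, and 38.3 and 55.1 CPM in ExDSS. All 4 exosome libraries were below the other 4, with means of 193 ± 77.5, 209 ± 112, 31.5 ± 44.6 and 46.7 ± 11.9 CPM for NC, PC, Ex and ExDSS (SD, n = 2). Gcnt1, the more widely expressed core 2 enzyme, at 19:17326141-17372844 on the minus strand, was 69.9 and 40.1 in NC, 80.7 and 133 in PC, 154 and 0.860 in Ex, and 14.5 and 112 CPM in ExDSS. It was highest in Ex 1 and was the 1 member whose lowest group mean was NC. Counts of Gcnt3 per count of Gcnt1 were 3.55 and 3.45 in NC, 3.57 and 0.975 in PC, 0.410 and 0 in Ex, and 2.64 and 0.493 in ExDSS, and the PC and ExDSS libraries each split into 1 high and 1 low value. Fut2, at 7:45648591-45666394 on the minus strand, was 127 and 41.0 in NC, 47.9 and 26.3 in PC, 22.5 and 0 in Ex, and 33.9 and 59.5 CPM in ExDSS. Its NC 1 value stood above the rest, and both Ex libraries were below all others.

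**Figure D3:**
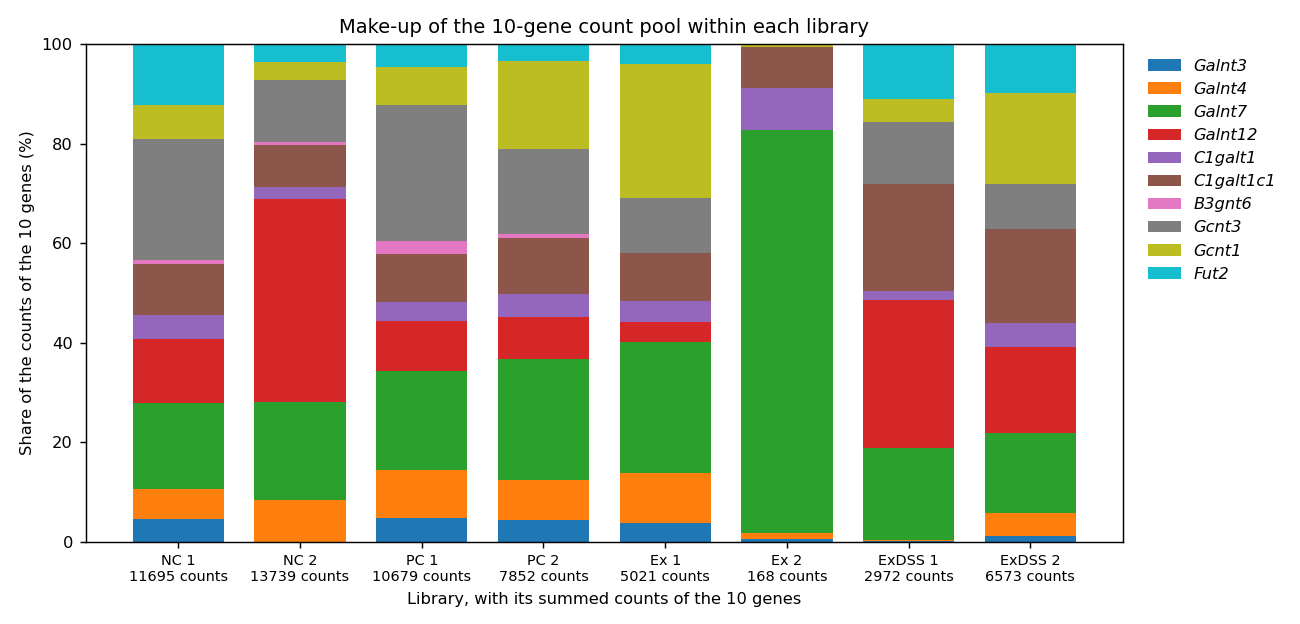
Share of the member counts taken by each of the 10 members in each library, as percent of that library's member counts. Galnt7 takes 81.0% in Ex 2, and Galnt12 takes 40.7% in NC 2 and 29.8% in ExDSS 1.

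RefSeq start-site tables (GRCm38.p6) held 250 bases upstream of the start for 4 of the 10 members. The 2 printed here are Galnt7, whose 2 ExDSS libraries lay below the other 6, and the first of the 3 listed starts of Gcnt1, the member highest in Ex 1. They are on chr8:57653056-57653305 and chr19:17372845-17373094, both on the minus strand, and capitals mark CG dinucleotides.
Galnt7: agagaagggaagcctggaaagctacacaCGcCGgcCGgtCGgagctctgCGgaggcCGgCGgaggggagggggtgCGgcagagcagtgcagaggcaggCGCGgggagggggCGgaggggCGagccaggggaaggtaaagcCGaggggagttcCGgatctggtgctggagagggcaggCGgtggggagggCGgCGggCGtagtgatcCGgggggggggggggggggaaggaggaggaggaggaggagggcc
Gcnt1: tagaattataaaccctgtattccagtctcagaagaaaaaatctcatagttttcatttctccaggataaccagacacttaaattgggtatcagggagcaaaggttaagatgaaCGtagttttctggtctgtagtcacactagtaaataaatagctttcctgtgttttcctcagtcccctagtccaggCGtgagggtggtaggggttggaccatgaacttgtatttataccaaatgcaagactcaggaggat
The Galnt7 window held 19 CG and was 73.6% G or C, and the Gcnt1 window held 2 and was 40.4%. The other Gcnt1 starts held 10 and 2 CG, the Galnt3 window 34, and the C1galt1 window 44, against a median of 6 over 32851 promoters. At least as many CG were held by 0.539% of promoters for C1galt1, 3.53% for Galnt3, 19.7% for Galnt7 and 81.2% for the printed Gcnt1 window. The Sp1-type motif GGGCGG, sought on both strands and present in 32.7% of those windows, occurred 2 times in the Galnt7 window and 0 times in the Gcnt1 one. These counts describe letters in a window and carry no measure of binding.

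The fits of all 14567 genes that passed the filter on low counts, 10 of the 10 members among them, gave no called gene in 4 comparisons. At a Benjamini-Hochberg adjusted p under 0.05, the quasi-likelihood test of edgeR called 0% of genes for PC against NC, ExDSS against PC, Ex against NC and ExDSS against Ex. At an unadjusted p under 0.05 it gave 363, 2763, 774 and 2881 genes in those comparisons. The interaction of exosomes and DSS called 42 genes (0.288%) and 2741 at the unadjusted threshold. No member was called in any of the 5, nor was any of 72 other tested genes of the pathway (84 listed). Members at an unadjusted p under 0.05 numbered 0, 1, 2, 1 and 1 in the 5 comparisons, on the same values that chose them. DESeq2 called 86, 1526, 337, 2046 and 1672 genes and limma-voom 2, 1160, 0, 505 and 327 in the same order, with 0, 1, 1, 0 and 1 members among the first and 0, 1, 0, 0 and 0 among the second. Without Ex 1, the lone library Ex 2 is assumed to vary like the other groups, and edgeR called 10.4%, 12.2% and 10.8% of 15406 genes in Ex against NC, ExDSS against Ex and the interaction, and 3 members in each. Without NC 1 or without NC 2, the interaction called 0 genes. Without Ex 2, NC 2 and ExDSS 1 together, edgeR called 1, 5, 3, 6 and 6 members in the 5 comparisons, against 25.7%, 70.5%, 23.7%, 64.8% and 63.5% of 15194 genes, so most of these member counts are at or below the background, and the spread then rests on the 2 PC libraries alone.

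**Figure D4:**
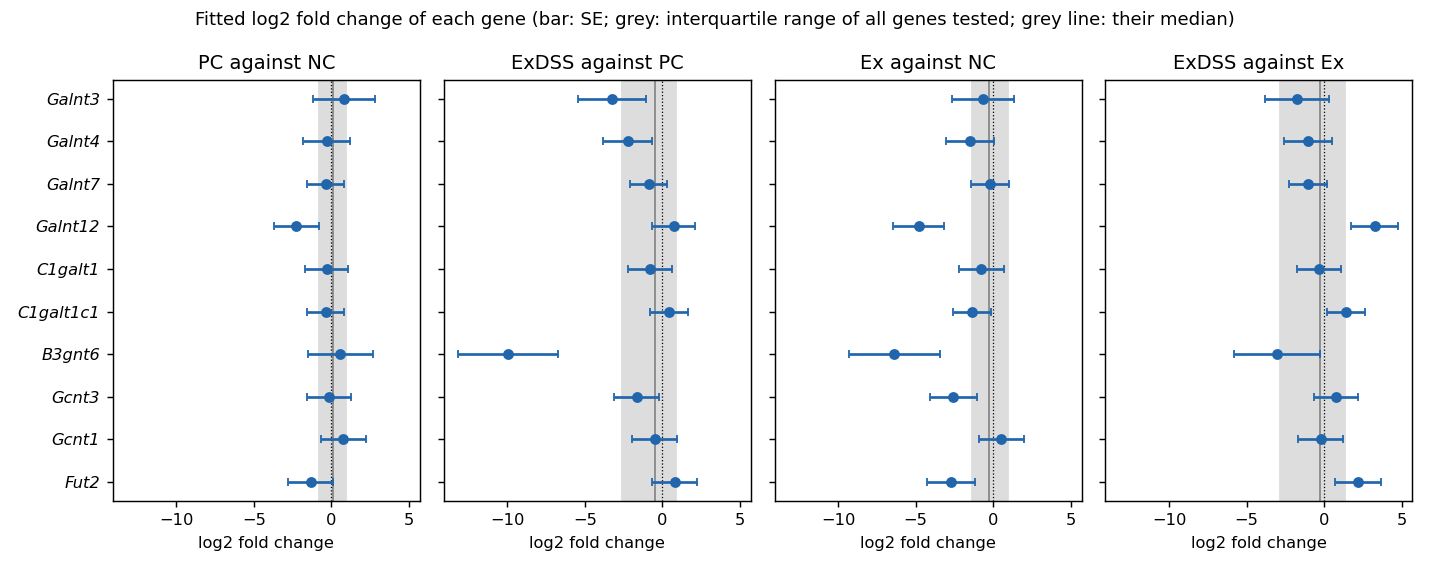
Fitted log2 fold changes of the 10 members in the 4 pairwise comparisons, with bars of 1 standard error and grey bands for the interquartile range of all genes tested. Most bars cross 0, and the fitted B3gnt6 values against groups at 0 depend on the prior count.

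The libraries labelled PC and NC differed little in most members. Galnt12 was lower in PC by the fit (log2 fold change -2.27, SE 1.46) and Fut2 too (-1.34, SE 1.46), and the remaining 8 lay between -0.38 and 0.83. The median over members was -0.32, and 0.10 over all genes. Galnt12 was the 1 member below NC in both PC libraries (19.1% of genes tested were so placed) and Gcnt1 the 1 member above (33% of genes). With TMM-normalised CPM, C1galt1, C1galt1c1, Fut2 and Galnt12 were lower in both PC libraries (23.6% of genes). Against NC 1 alone, Fut2, C1galt1, C1galt1c1 and Galnt12 were lower in both PC libraries (42.6% of genes) and Galnt4, Galnt7 and Gcnt1 higher (39.8%). The neutrophil sum was 4264 and 2354 CPM in these NC libraries and 21.2 and 16.8 CPM in these PC libraries, and its part in the member values was not tested.

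In ExDSS against PC, 6 members were lower in both ExDSS libraries: B3gnt6, C1galt1, Galnt3, Galnt4, Galnt7 and Gcnt3. Of all genes tested, 51.9% were so placed, so the members' count is close to that background. The fitted log2 fold changes were -3.25 (SE 2.17) for Galnt3, -2.23 (SE 1.59) for Galnt4, -1.66 (SE 1.45) for Gcnt3 and -0.89 (SE 1.22) for Galnt7. By the limit of 3 counts, which covers counting error only, B3gnt6 was at least 55.5-fold lower (20.6-fold against PC 2 alone). Fut2 and Galnt12 had positive values of 0.79 (SE 1.44) and 0.72 (SE 1.40), and no member was higher in both libraries (13.7% of genes), while with TMM C1galt1c1, Fut2 and Galnt12 were (18.9%). The median was -0.84 over members and -0.51 over all genes. With ExDSS 2 alone, the same 6 were lower (60.6% of genes), and C1galt1c1 and Fut2 were higher (32.8%). Neutrophil sums were 2946 and 2776 CPM in these ExDSS libraries and 21.2 and 16.8 CPM in these PC libraries, and their part in the member values was not tested.

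In Ex against NC, 8 members were lower in both Ex libraries, all but Galnt3 and Gcnt1, against 24.5% of genes, and no member was higher (6.72%). With Ex 1 alone the same 8 were lower (28.4% of genes) and Gcnt1 was higher (32.4%). Galnt4 and Galnt7 drop out on both other scales, leaving 6 members lower with TMM (22.9% of genes) and 6 with Rn45s and the acinar genes out of the totals (21.2%), and the fitted Galnt7 value of -0.22 becomes 0.40 with RLE factors. Galnt12 had a log2 fold change of -4.81 (SE 1.64), Fut2 -2.73 (SE 1.53) and Gcnt3 -2.58 (SE 1.50), where Ex 2 was at 0 for each. Without Ex 2, Fut2 was -1.80 and Gcnt3 was -1.59. The median over members was -1.44 and -0.27 over all genes. The rule that chose the members used these levels, so nothing is read from the excess over the background. Neutrophil sums were 16.5 and 11.2 CPM in these Ex libraries and 4264 and 2354 CPM in these NC libraries, and their part was not tested.

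ExDSS against Ex placed C1galt1c1, Fut2 and Galnt12 higher in both ExDSS libraries (15.2% of genes) and Galnt7 lower (15.8%). The fitted values were 3.26 (SE 1.53) for Galnt12, 2.19 (SE 1.50) for Fut2 and 1.44 (SE 1.22) for C1galt1c1, and -1.04 (SE 1.22) for Galnt7. Without Ex 2, which has no count of Galnt12 or Fut2, these were 2.41 for Galnt12, 1.32 for Fut2 and 0.99 for C1galt1c1. Galnt12 and Fut2 gave the largest positive interaction terms among members, 5.53 (SE 2.11) and 3.52 (SE 2.09), or 4.62 and 2.60 without Ex 2. Across the 4 exosome libraries and the 4 others, B3gnt6, Galnt4, Galnt7 and Gcnt3 did not overlap and were lower in the exosome libraries (4.03% of genes), and no member was higher (0.0549%). Leaving out Ex 2 gave the same 4 (4.93% of genes) and again none higher (0.364%). B3gnt6 and Gcnt3 held on all 3 scales, with and without Ex 2, while Galnt4 overlapped on both other scales. With TMM the members lower in all 4 were B3gnt6, C1galt1 and Gcnt3 (2.88% of genes, and 3.78% without Ex 2), and with Rn45s and the acinar genes out of the totals they were the same 3 (3.46%), to which Galnt7 was added without Ex 2 (4.49%). The comparisons share control libraries and are not independent of one another.

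Other enzymes of the pathway, in 6 lists written from general knowledge, gave no called gene. At an unadjusted p under 0.05, edgeR gave 0 genes in PC against NC, 11 in ExDSS against PC (1 higher and 10 lower), 2 in Ex against NC (both lower), 11 in ExDSS against Ex (1 higher and 10 lower) and 12 in the interaction (2 positive and 10 negative). Of all 14567 genes, 100 were higher and 263 lower in PC against NC at that threshold, and 414 and 2349 in ExDSS against PC. They were 421 and 353 in Ex against NC, 517 and 2364 in ExDSS against Ex, and 853 and 1888 in the interaction. The share among the 72 pathway genes tested was thus below that of all genes in each comparison. DESeq2 called 0, 8, 0, 11 and 4 of these pathway genes and limma-voom 0, 7, 0, 1 and 1, beside the counts over all genes given above. The median over these 72 genes was 0.29, -1.02, -0.33 and -0.53 in the 4 pairwise comparisons, beside 0.10, -0.51, -0.27 and -0.29 over all genes.

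Fucosylation and terminal GalNAc genes were the list lowest in ExDSS against PC, with 10 of 11 tested values negative and a median of -4.71, or -3.16 with the 4 genes at 0 in both ExDSS libraries (Fut9, Fut1, Fuk and A4gnt) set at the limit of 3 counts. Of all 14567 genes tested, 8636 were negative in ExDSS against PC and 7766 positive in PC against NC. In PC against NC, which shares the PC libraries, 10 of 11 genes of the list were positive, with a median of 1.09. Of its most abundant genes, Gmds and Tsta3, which make GDP-fucose, were 181 ± 74.7 and 174 ± 29.6 CPM in PC and 28.5 ± 13.9 and 75.2 ± 43.2 CPM in ExDSS (SD, n = 2). B4galnt2, which adds a terminal GalNAc, was 590 ± 305 in NC, 296 ± 164 in PC, 51.9 ± 70.9 in Ex and 360 ± 90.5 in ExDSS.

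Sulfation genes were mixed. Papss1, which makes the sulfate donor, was 40.3 and 32.4 in NC, 181 and 177 in PC, 140 and 2.58 in Ex, and 0.104 and 32.9 CPM in ExDSS, so both PC libraries were above both NC and both ExDSS libraries. Slc26a2, a sulfate transporter, had 40.0 and 17.5 in NC, 98.3 and 102 in PC, 135 and 1.72 in Ex, and 0.104 and 43.4 in ExDSS. Papss2, which makes the same donor, was 81.5 ± 21.9 in NC and 68.0 ± 20.7 CPM in PC. The list's median was 0.76 in PC against NC and -1.61 in ExDSS against PC.

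Sialylation genes had medians of -0.04, -0.41, -1.16 and 0.57 in PC against NC, ExDSS against PC, Ex against NC and ExDSS against Ex. St6galnac6, a sialyltransferase, was 496 and 573 in NC, 451 and 443 in PC, 307 and 0 in Ex, and 362 and 375 CPM in ExDSS. Cmas, which activates sialic acid, was 425 ± 80.9, 411 ± 41.4, 172 ± 236 and 228 ± 72.8 in NC, PC, Ex and ExDSS, and Gne, which begins sialic acid synthesis, was 214 and 696 CPM in NC with NC 2 the higher. St3gal6, a sialyltransferase named after its values were seen, was 20.4 and 1.38 in NC, 74.4 and 133 in PC, 155 CPM in Ex 1 and 0 in Ex 2 and both ExDSS libraries. Its interaction had an adjusted p of 0.0537 by edgeR's quasi-likelihood test. Among the alternatives that kept all libraries, it was called with RLE factors, with no filter on low counts, with the replicate block and by DESeq2. It was not called with total counts alone, with scaling without Rn45s and the acinar genes, or by limma-voom.

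Among other initiating transferases Galnt1 was 142 and 82.0 in NC, 204 and 154 in PC, 110 and 429 in Ex, and 21.8 and 93.5 CPM in ExDSS, so its highest value was in Ex 2. Galnt6 was 45.1 and 236 in NC, and Galnt2 was 66.1 and 3.74 CPM there, with NC 2 the higher of the pair for one and the lower for the other. For core extension and branching the median in ExDSS against PC was -0.46. B3galt5, which extends chains with galactose, was 261 ± 321 CPM in NC (SD, n = 2), with NC 1 the higher. B4galt1 was 104 ± 48.6, 68.5 ± 0.112, 52.3 ± 65.4 and 109 ± 17.2 CPM, and B3gnt2 was 58.3 ± 4.15, 66.1 ± 3.70, 101 ± 35.9 and 67.1 ± 56.6 in NC, PC, Ex and ExDSS. Of the sugar nucleotide genes, Gfpt1, the first enzyme of hexosamine synthesis, was 283 ± 329 in NC, 839 ± 163 in PC, 273 ± 364 in Ex and 83.5 ± 57.8 CPM in ExDSS. Gnpnat1, which acts later in that synthesis, was 120 ± 1.00 CPM in the PC libraries and 32.3 ± 12.5 CPM in the ExDSS libraries.

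Muc2, the substrate of the pathway, was 3102 and 1182 in NC, 3979 and 2496 in PC, 636 and 20.6 in Ex, and 488 and 1648 CPM in ExDSS. Its NC 2 value lay below that of ExDSS 2, so it did not divide the 4 exosome libraries from the others as B3gnt6 did. The goblet genes Clca1 and Zg16 were highest in ExDSS 2, at 25124 and 15340 CPM, a library in which B3gnt6 was at 0.

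The genes most like each member were found by the mean absolute difference of centred log2 CPM over the 8 libraries. For B3gnt6 they were Prkg2 (0.41), H2-T3 (0.54) and Scgb1b3 (0.70). Prkg2, a cGMP-dependent kinase, was 12.2, 12.2, 13.5 and 4.32 CPM in the NC and PC libraries and at 0 in the other 4. For Galnt3 they were Commd1 (0.49), Dynlt1b (0.57) and Prmt6 (0.58), each low in NC 2, Ex 2 and ExDSS 1. For the others the nearest genes were Gpaa1 (0.29) for Galnt4, Adipor2 (0.19) for Galnt7, Lrpprc (0.40) for Galnt12, Ctdsp2 (0.20) for C1galt1, Yipf6 (0.13) for C1galt1c1, Mgam (0.21) for Gcnt3, Rpl34-ps1 (0.25) for Gcnt1 and Gvin1 (0.33) for Fut2. The nearest member of B3gnt6 was Galnt4 (1.72), and the closest pair within the set was Galnt7 and C1galt1 (0.49). Profiles over these 8 libraries share depth and composition, and likeness says nothing of shared control.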

How the data were processed

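RNA of 8 libraries was read with a 3′ mRNA kit (QuantSeq), per the labels' protocols. The submitters' processing notes name Bowtie2, bedtools, edgeR and the build mm9, without versions. The authors deposited raw counts per gene in 1 table, and 10 of 10 members overlapped their gene in GRCm38 by the table's coordinates. Lines whose gene name is a calendar date (27 lines, 0.135% of the counts) stayed in the fits, subject to the filter on low counts. They were left out only of the search for genes most like a member. The members and all gene lists were chosen with earlier results of these data known; lists of other pathway genes came from textbook knowledge.

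Levels are CPM of library totals, which ran from 1163147 to 12308537 counts. A count of 0 was read as up to 3 counts. Tests used edgeR 4.0.16 in R 4.3.3 (TMM factors, robust quasi-likelihood fit, filterByExpr with a minimum count of 10 and a minimum total of 15, 1 coefficient per group, 4 residual degrees of freedom), with Benjamini-Hochberg adjustment over 14567 genes at 0.05. The code was checked on counts simulated with a smaller dispersion than the 1.17 fitted here. That check says nothing of power or false calls at the spread of these data. Standard errors are the fold change over the root of its F value. The 2 libraries of a group were not copies of each other by their counts. limma 3.58.1 (voom), DESeq2 1.42.0, other scalings, no filter, the replicate block, removal of each library, and removal of Ex 2, NC 2 and ExDSS 1 together were alternatives. Overlap between groups on the 2 other scales, and without single libraries, was added after seeing the data. An exact permutation test of 2 libraries against 2 cannot pass 0.05 and was not used.

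Named genes were all members, the 3 most abundant genes of each pathway list and any called gene, the 2 most abundant of each marker list, and the 3 genes most like each member (at least 5 CPM on average, prior count 2); St3gal6, the genes named at a count of 0, Muc2, and genes called by other tools were named after their values were seen. A gene that this rule names is not reported here.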

Additional observations from a re-analysis of the deposited data

Results flagged for a closer look

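The genes looked at here were the members, the 3 most abundant genes of each pathway list and St3gal6. In 4 of these, the difference between libraries labelled with and without DSS reversed between PC against NC and ExDSS against Ex. The reversal held in both libraries of each group. Outside that choice, the pathway genes Chst2, B4galt5, Fut9, Galnt5, Pgm3, Slc35b3 and Uap1 reversed in the same sense. The share of all genes that did so was not counted, so nothing is read from how many genes reversed. In PC against NC alone, 19.1% of genes were lower and 33% higher in both PC libraries. In ExDSS against Ex alone, 15.8% were lower and 15.2% higher in both ExDSS libraries. Such reversals rest on the NC and PC labels. The neutrophil sums were 4264 and 2354 CPM in the libraries labelled NC and 21.2 and 16.8 CPM in those labelled PC. Exchanging these labels would by arithmetic give the difference the same direction in both pairs, and whether they were exchanged was not tested. For the 4 genes, the differences between these effects (interaction, log2 scale) were 5.53 for Galnt12, 4.46 for Galnt6, 2.15 for St6galnac6 and -3.33 for Galnt1. None of the 4 was called by edgeR after adjustment. Galnt12 was 131 and 454 in NC, 107 and 64.0 in PC, 23.3 and 0 in Ex, and 91.9 and 104 CPM in ExDSS. Galnt6 was 45.1 and 236 in NC, 44.0 and 38.3 in PC, 26.8 and 0.860 in Ex, and 64.0 and 41.2 CPM in ExDSS. For Galnt12, Galnt6 and St6galnac6 the Ex libraries were the lowest, with Ex 2 at 1 count or none, and for Galnt1 Ex 2 was the highest. Acinar marker sums were 94479 CPM in NC 2 and 211677 CPM in ExDSS 1, and their part in these values was not tested.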

How the results depend on the processing

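Among the members' fitted fold changes, 793 of 839 values under the alternatives moved by less than the spread between libraries, 46 moved by more, and 48 changed sign. The count of genes called in PC against NC, ExDSS against PC, Ex against NC, ExDSS against Ex and the interaction was 0, 0, 0, 0 and 42; it was 86, 1526, 337, 2046 and 1672 with DESeq2, 45, 132, 55, 223 and 350 with no filter on low counts, and 3910, 10719, 3603, 9839 and 9646 without Ex 2, NC 2 and ExDSS 1 together. With limma-voom it was 2, 1160, 505 and 327 in PC against NC, ExDSS against PC, ExDSS against Ex and the interaction. The interaction gave 67 with RLE factors and 6 with total counts alone. With the replicate block it was 41, 28 and 161 in ExDSS against PC, ExDSS against Ex and the interaction, with 1 other pathway gene (St3gal6) in each and no member; same-numbered libraries were not paired in their deviations (correlations of -0.203 to 0.110 between groups). Members called were 1 in ExDSS against PC, Ex against NC and the interaction with DESeq2, 1 in ExDSS against PC with limma-voom, and 1, 5, 3, 6 and 6 without the 3 libraries. Other pathway genes called were 22, 49, 21, 41 and 48 without the 3 libraries, 8, 11 and 4 in ExDSS against PC, ExDSS against Ex and the interaction with DESeq2, 7, 1 and 1 with limma-voom, and 1, 2 and 2 with no filter; RLE factors gave 1 in the interaction. Leaving out 1 library gave 0 to 4, 0 to 6, 0 to 1596, 0 to 1883 and 0 to 1663 genes, 0 to 3 members in Ex against NC, ExDSS against Ex and the interaction, and 0 to 10, 0 to 11 and 0 to 8 other pathway genes there, the highest of the last 3 comparisons without Ex 1. The pathway counts without the 3 libraries are to be read beside the shares of all genes called in that setting, given in the Results. No pathway response is read from them, since NC, Ex and ExDSS then hold 1 library each. Over all genes, the median in ExDSS against PC was -0.51 with TMM and -0.91 with total counts alone. Summed member levels in NC were 1160 CPM without Rn45s and acinar genes in the totals, and 1071 CPM with them. The fitted Galnt3 difference of PC against NC was 11.21 without NC 1, since NC 2 has no count of it. Depth limits Ex 2 most: a count of 0 there allows 2.58 CPM.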
